A study of Mus musculus with 12 samples.

Results

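To examine what interferon gamma (IFNγ) alone does to CD8 T cells, untreated splenic cells (Naïve) were set against cells kept with IFNγ at 70 ng/ml. The comparison used 6 of the 12 libraries of the series, 3 Naïve and 3 IFNγ, chosen by their labels alone. All cells came from the spleens of C57BL/6 mice given as 6 weeks old, with no genetic change named, were isolated with magnetic beads and were collected after 6 hours. The other 6 libraries, 3 from cells given an antibody to CD3 (αCD3) and 3 from cells given bacterial lipopolysaccharide (LPS), shared the estimate of the spread and were used for direct contrasts with IFNγ. No source used here says whether replicates came from separate animals, pools or cultures, so p-values measure the spread between these samples, which may be technical.

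IFNγ is a cytokine made chiefly by activated T cells and NK cells. It binds a receptor built of the chains IFNGR1 and IFNGR2, whose kinases JAK1 and JAK2 phosphorylate STAT proteins, and paired STAT proteins then bind GAS elements in DNA and switch on target genes, among them the transcription factor IRF1. STAT2 and IRF9 in a complex, and IRF factors themselves, act through a related element, the ISRE, that also serves type I interferons. Known targets include GTPases that attack intracellular microbes, antiviral proteins, the MHC class I pathway, chemokines that recruit T cells, and inhibitors such as SOCS1 that shut the signal down.

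Estimated counts summed to 18900484, 11833033 and 15283466 in the 3 Naïve libraries and to 12195895, 11700322 and 10586851 in the 3 IFNγ libraries. Levels are given as CPM (estimated counts per 1000000 counts of the TMM-scaled library size), means are given ± SD over 3 libraries, and a gene is said to rise or fall only if its adjusted p in edgeR's quasi-likelihood test was under 0.05. Replicate 1 stood apart from the others in both groups. Over genes, the chi-square per degree of freedom between libraries was 21.25 and 21.91 for Naïve replicate 1 against replicates 2 and 3, but 4.672 between these, and in IFNγ the corresponding values were 31.16, 23.32 and 5.943. Cd8a and Cd8b1, of CD8 T cells, and Cd3e, of all T cells, were at 78.8, 213 and 129 CPM per kb of transcript in Naïve. In IFNγ they were at 81.8, 246 and 131 CPM per kb. Cd4, of CD4 T cells, was at 39.1 CPM per kb in Naïve and 35.6 CPM per kb in IFNγ. The B cell receptor gene Cd79a lay above all of these, at 620 and 592 CPM per kb, so that B cell RNA was present in both groups.

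Of 20778 genes in the table, 12122 were tested and 1508 were called, 990 higher (8.17% of those tested) and 518 lower (4.27%) with IFNγ. At least 4-fold changes were found in 164 genes that rose and 32 that fell, and at least 16-fold changes in 22 and 7. The median log2 fold change was 0.74 among genes that rose and -0.58 among those that fell. Of the 1508 genes, 1507 had the same sign in all 3 pairs of equal replicate number and 1501 had libraries that did not overlap between the groups. Both counts follow largely from the calls, which used the same values, and add no support to them. Over all tested genes, libraries did not overlap in 1955 higher (16.1%) and 1868 lower (15.4%) genes. With the replicate number as a block, 1642 genes (13.5%) were higher and 1378 (11.4%) lower, 1507 of the 1508 among them. The balance of directions changed with another scaling. When TMM factors were left out, the median over all tested genes moved from -0.02 to -0.16, and higher genes made up 31.4% of those called rather than 65.6%. The total count was 850 and 835 without Naïve replicates 2 and 3, and 787 and 918 without IFNγ replicates 2 and 3.

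**Figure D1:**
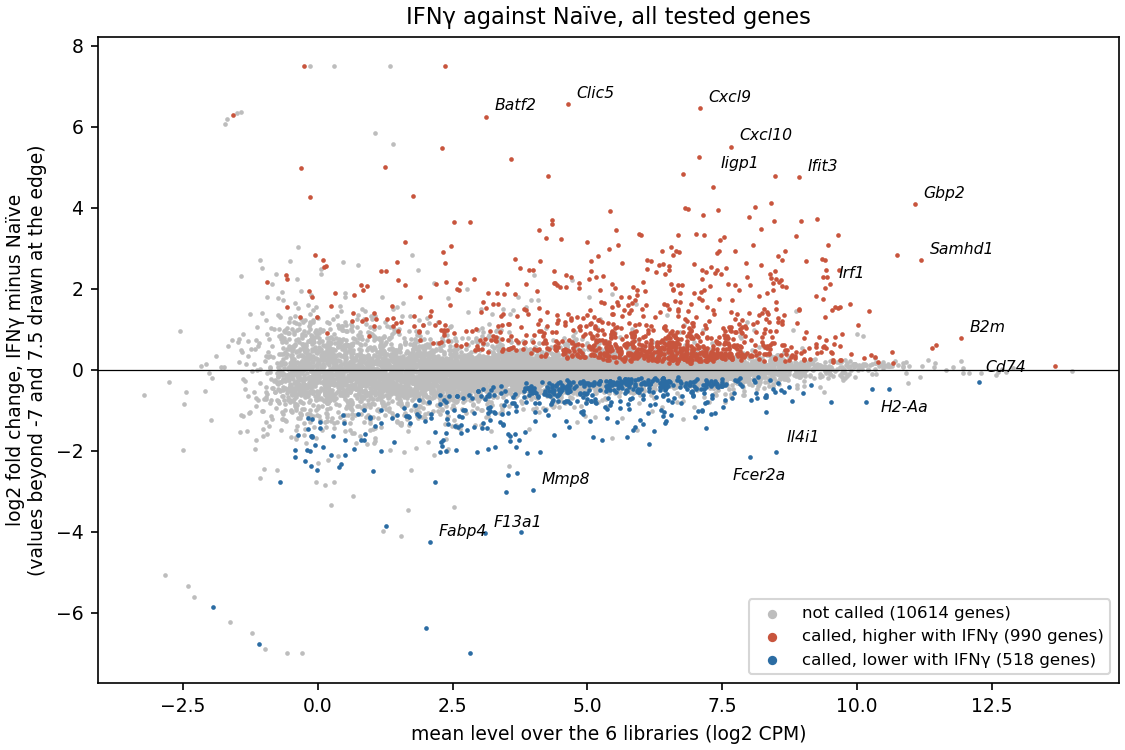
Log2 fold change of IFNγ against Naïve (y axis) for the tested genes, plotted against their mean log2 CPM (x axis), with called genes coloured and values beyond the range drawn at its edge. The 990 genes that rose had a median log2 fold change of 0.74, and the 518 that fell one of -0.58.

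Of the receptor chains and their kinases Ifngr2 fell and the others did not pass the test, while 4 genes further down the pathway rose. Ifngr1, the ligand-binding chain, was at 675, 666 and 658 CPM in the Naïve libraries and at 701, 693 and 682 CPM in the IFNγ libraries (log2 fold change 0.05 ± 0.09 SE, adjusted p = 0.759). Ifngr2, the signalling chain (chr16:91547072-91565623, plus strand), was at 153, 151 and 151 CPM without and at 98.9, 93.9 and 99.0 CPM with IFNγ. All 3 treated libraries lay below every untreated one, and Ifngr2 fell by 0.64 ± 0.11 SE on the log2 scale (1.56-fold lower, adjusted p = 0.00423). Jak1 (782 ± 85.6 SD against 795 ± 76.2 CPM, n = 3 each, adjusted p from edgeR 0.916) and Jak2 (288 ± 43.2 against 327 ± 21.5 CPM, adjusted p from edgeR 0.36) did not pass the test. Among 16 tested genes of the receptor and STAT pathway, 4 rose and 2 fell, and with the replicate block 4 were higher and 3 lower. The median log2 fold change was 0.05, against -0.02 over all tested genes. This list median was -0.09 with library size alone.

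Stat2, a part of the complex that binds the ISRE (chr10:128270559-128292849, plus strand), was at 111, 140.2 and 157 CPM in Naïve and at 480.5, 699.5 and 663 CPM in IFNγ. The groups were well apart, and Stat2 rose 4.51-fold (log2 fold change 2.17 ± 0.31 SE, adjusted p = 0.00166). Pml, which organises nuclear bodies, rose 6.42-fold from 143 ± 18.7 to 916 ± 138 CPM, and Nmi, a STAT-interacting protein, rose 3.22-fold. Stat3 was 1.39-fold higher and Stat5a, used by IL2 family receptors, 1.30-fold lower, and these calls were lost in 8 and 5 of 15 alternatives, with adjusted p up to 0.108 and 0.0992.

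Downstream of the STATs, 6 of 10 tested genes (the IRF family and Batf2) rose and none fell, with a median log2 fold change of 0.98. Irf1, the main relay of the IFNγ response (chr11:53770014-53778374, plus strand), was at 239, 267 and 310.2 CPM in Naïve and at 1292, 1102 and 1141 CPM in IFNγ. Every treated library was above every untreated one by a wide margin, and Irf1 rose 4.33-fold (log2 fold change 2.11 ± 0.32 SE, adjusted p = 0.00226). Batf2, a basic leucine zipper factor that works with IRF1, went from 0.293, 0 and 0.303 CPM to 14.9, 18.0 and 18.5 CPM (76.2-fold, adjusted p = 0.000999). Irf9, the DNA-binding part of the complex with STAT2, rose 1.89-fold from 161 ± 16.8 to 304 ± 17.1 CPM. Irf7, an amplifier of type I interferon production, rose 7.66-fold, with IFNγ replicate 1 at 378 CPM and the other treated libraries at 932 and 845 CPM. Irf8 had 397 ± 59.1 and 1096 ± 91.8 CPM (adjusted p = 0.0145), a call lost in 2 of 15 alternatives with adjusted p up to 0.0548.

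Of 14 tested feedback inhibitors, 3 rose and none fell, and 4 were higher with the replicate block. The count was 1 without Naïve replicate 2 or without IFNγ replicate 2 or 3. Socs1, which blocks JAK activity (chr16:10782240-10785536, minus strand), was at 50.2, 77.2 and 115 CPM in Naïve and at 331, 308 and 399 CPM in IFNγ. The lowest treated library exceeded the highest untreated one, and Socs1 rose 4.28-fold (log2 fold change 2.10 ± 0.53 SE, adjusted p = 0.0272), although the call was lost in 5 of 15 alternatives, with adjusted p up to 0.0942. Usp18, which removes ISG15 from proteins and dampens the type I receptor, rose 10.3-fold, from 15.5, 28.1 and 25.4 CPM to 94.8, 319 and 293 CPM. Pias1, an inhibitor of STAT binding to DNA, differed by 0.26 ± 0.06 SE on the log2 scale (adjusted p = 0.0217), a call lost in 6 alternatives. Ptpn6, the most abundant inhibitor of the list, had 385 ± 28.5 and 388 ± 38.2 CPM.

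**Figure D2:**
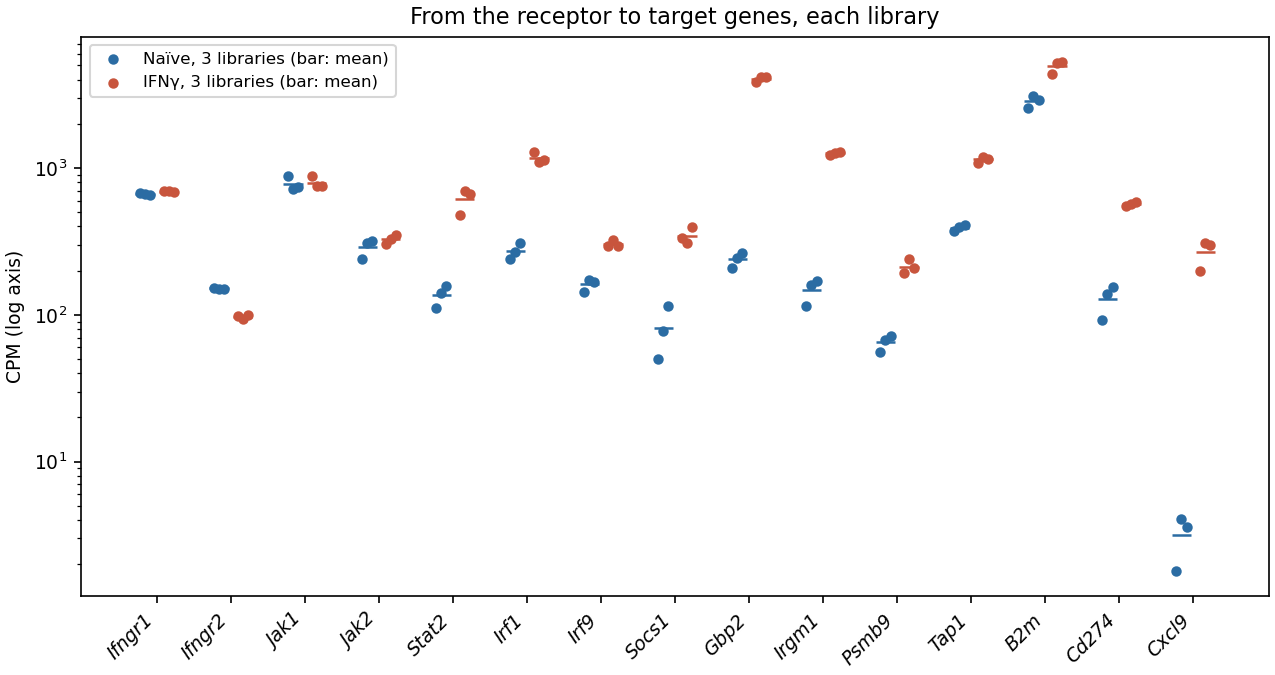
CPM (log axis) of receptor, signalling and target genes in each Naïve and IFNγ library, with a bar at each group mean. Ifngr1, Jak1 and Jak2 lie at like levels in both groups, Ifngr2 is lower with IFNγ, and the targets from Irf1 to Cxcl9 are higher in all 3 treated libraries.

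To see where the elements named above stand, RefSeq promoter windows for GRCm38.p6, from 250 bases before to 50 bases after each start, were searched on both strands for a GAS element, TTCNNNGAA, and for an ISRE-like pair of IRF contacts, GAAANNGAA. Over all 32851 windows, 8.30% held the GAS and 8.56% the ISRE letters. Windows were at hand for 79.0% of the genes that rose, under the 80% needed for a comparison of shares, which is therefore void. The 250 bases before the start are printed here for Irf1 (chr11:53769764-53770013, plus strand), Socs1 (chr16:10785537-10785786, minus strand), Gbp2 (chr3:142620413-142620662, plus strand) and Cxcl9 (chr5:92328080-92328329, minus strand), to show where these letters stand in genes of the relay, the feedback and the effector response. Each is 5′ to 3′ in the direction of transcription, and capitals mark the matches.
Irf1: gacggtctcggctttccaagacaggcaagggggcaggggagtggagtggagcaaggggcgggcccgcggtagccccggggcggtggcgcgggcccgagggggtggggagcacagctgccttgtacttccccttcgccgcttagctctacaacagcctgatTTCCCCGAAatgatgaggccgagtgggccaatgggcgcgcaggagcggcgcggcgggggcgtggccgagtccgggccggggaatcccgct
Socs1: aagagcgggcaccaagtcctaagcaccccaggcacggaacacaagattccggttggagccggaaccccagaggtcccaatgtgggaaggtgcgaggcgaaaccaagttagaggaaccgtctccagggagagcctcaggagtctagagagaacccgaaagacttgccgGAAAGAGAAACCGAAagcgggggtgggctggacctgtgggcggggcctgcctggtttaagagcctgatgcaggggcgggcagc
Gbp2: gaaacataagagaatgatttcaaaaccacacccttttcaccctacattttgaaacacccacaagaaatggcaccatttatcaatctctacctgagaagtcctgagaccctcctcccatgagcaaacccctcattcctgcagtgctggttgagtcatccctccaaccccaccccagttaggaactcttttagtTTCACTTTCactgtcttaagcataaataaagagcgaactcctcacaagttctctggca
Cxcl9: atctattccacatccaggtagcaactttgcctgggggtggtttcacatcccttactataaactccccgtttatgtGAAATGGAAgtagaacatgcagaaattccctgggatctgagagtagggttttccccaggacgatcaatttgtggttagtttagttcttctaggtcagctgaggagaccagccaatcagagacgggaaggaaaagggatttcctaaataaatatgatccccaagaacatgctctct
Irf1 has a single GAS match that begins 90 bases before the start. Gbp2 has an ISRE match 58 bases before it, Cxcl9 has its ISRE match 175 bases before it, and Socs1 has 2 overlapping ISRE matches at 83 and 77 bases. The Psmb9 window and a second Irf1 window held neither motif. Promoters were printed only where they held a match, so these matches do not bear on how common the motifs are. A match is a description of the letters only.

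Guanylate-binding proteins (GBPs), large GTPases that coat and break open vacuoles with microbes, all rose. All 8 tested members were called higher, with log2 fold changes from 2.44 to 4.09 and a median of 3.01. Gbp2 (chr3:142620602-142638008, plus strand) was at 208, 244 and 265 CPM in Naïve and at 3861, 4183 and 4148 CPM in IFNγ. The 3 treated libraries were close to each other and far above all untreated ones, a 17.0-fold rise (log2 fold change 4.09 ± 0.40 SE, adjusted p = 0.000322). Gbp7 rose 9.87-fold from 85.5 ± 12.1 to 844 ± 43.5 CPM. Gbp4, at 5.80, 10.5 and 0 CPM without and 34.3, 98.2 and 107 CPM with IFNγ, varied more and lost its call in 8 of 15 alternatives, with adjusted p up to 0.0982. Summed over the family, the level rose from 523 ± 50.2 to 6388 ± 375 CPM, 12.2 times as high. Gbp5, Gbp6 and Gbp10 are not analysed here.

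Immunity-related GTPases (IRGs), which act on the same vacuoles, moved likewise, and all 12 tested genes of a list of IRGs and the very large GTPase Gvin1 rose with a median log2 fold change of 2.66. Irgm1, a regulator of the family, went from 115, 159 and 171 CPM to 1235, 1268 and 1279.9 CPM (8.52-fold, adjusted p = 0.0012). Iigp1, an effector that loads onto vacuoles, went from 14.3, 27.8 and 33.5 CPM to 549, 809 and 711 CPM (27.5-fold, adjusted p = 0.00102). Neither gene had overlapping groups. Ifi47 rose 5.49-fold to 1382 ± 143 CPM and Gm4951 36.9-fold to 23.3 ± 6.03 CPM. Tgtp1 and Tgtp2 also rose, 6.51-fold and 6.12-fold, but 16% and 9% of the 31-base words in their transcripts were unique to the gene, and Gvin1, 2.72-fold higher, had no unique words, so their levels are uncertain.

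Many of these genes lie next to each other. Among 12079 tested genes with a position in GENCODE M21 (GRCm38), 21 runs of at least 4 neighbouring genes that all rose held 107 genes, and there were 0 runs of genes that all fell. Some members of a run share sequence, which can tie their estimates. The longest run, of 10 genes, reached from Irgm1 to Ifi47 at chr11:48861968-49135387. Another, of 8 genes at chr11:82951349-83215154, held the Schlafen family from Slfn5 to Slfn3. Gbp genes filled runs of 4 at chr3:142530342-142638008 and at chr5:105014150-105346472, Ifit genes a run of 6 at chr19:34550694-34650009, and a run of 6 at chr14:59244441-59440884 held Phf11 genes and Setdb2. In the MHC, Psmb9, Tap1, Psmb8 and Tap2 stood together at chr17:34181987-34216321. Cxcl9, Art3, Cxcl10 and Cxcl11 formed the run at chr5:92321347-92414628.

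Antiviral effectors rose nearly throughout. Of 38 tested members, 36 were called higher and none lower, with a median log2 fold change of 2.67, and with the replicate block 37 were higher and 1 lower, Ifitm2. Ifit3, which binds viral RNA together with other IFIT proteins, was at 27.6, 38.1 and 37.9 CPM in Naïve and at 474, 1238 and 1109 CPM in IFNγ (27.3-fold, adjusted p = 0.0012), and 38% of its 31-base words were unique, with Ifit3b as a close copy. Mx1, a GTPase that blocks influenza virus replication, rose 22.7-fold from 13.6 ± 2.29 CPM to 89.3, 462 and 368 CPM. Samhd1, which degrades nucleotides that viruses need, had the highest level of the list and rose 6.52-fold from 622 ± 52.3 to 4051 ± 612 CPM. Rnf213, a large ubiquitin ligase, rose 7.20-fold to 3017 ± 1209 CPM, and Zbp1, a sensor of Z-form nucleic acids, 10.1-fold to 1457 ± 402 CPM.

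Within the treated group, replicate 1 carried the smallest antiviral response. IFNγ replicate 1 was the lowest treated library in 36 of the 36 antiviral genes that rose, and in 721 of all 990 genes that rose (72.8%). Summed over the antiviral list, IFNγ replicates 1 to 3 had 11648, 23402 and 20891 CPM, against 2689, 3309 and 3244 CPM in Naïve. The GBP sums of these libraries lay closer together, at 5957, 6638 and 6570 CPM. Without replicate 1 of every group, 37 antiviral genes were called higher and 1 lower, with a median of 2.73.

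Sensors of foreign nucleic acid followed the effectors, with 12 of 16 tested genes higher (14 with the replicate block), none lower and a median log2 fold change of 2.43. Ifi209, of the PYHIN family of DNA-binding proteins, rose 4.03-fold from 252, 291 and 266 CPM to 670.0, 1384 and 1209 CPM. Ifi204, Ifi205 and Ifi211 had the largest fitted rises of this list, 8.13-fold, 8.92-fold and 10.2-fold, but all 3 lost their calls in at least 5 alternatives, with adjusted p up to 0.142. In the list of the PARP family of ADP-ribosyl transferases and the ubiquitin ligase Dtx3l, a partner of PARP9, 8 of 16 tested genes rose (10 with the replicate block) and none fell. Parp14 rose 5.56-fold from 211 ± 24.9 to 1172 ± 285 CPM, Parp9 4.63-fold and Parp12 7.69-fold. All 7 tested Schlafen genes were called higher, but 4 were without Naïve replicate 1 or 3 or without IFNγ replicate 2 or 3, and Slfn2, Slfn3 and Slfn4 lost their calls in 5, 6 and 6 alternatives. Slfn5, which restrains viral transcription, rose from 62.6, 99.2 and 95.0 CPM to 398, 1624 and 1378 CPM (13.3-fold, adjusted p = 0.00669). Of 13 tested Trim genes linked to interferon, 11 rose, among them Trim30a (4.93-fold), Trim30d (5.68-fold) and Trim21, an antibody receptor of the cytosol (3.76-fold).

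Surface proteins of the Ly6 and Ms4a families were partly included. Of 7 tested Ly6 genes 4 rose, and Ly6a, which encodes the antigen Sca1, went from 29.5, 47.8 and 45.5 CPM to 269, 352 and 279 CPM (7.34-fold, adjusted p = 0.000962). Ly6i rose 12.2-fold and Ly6c1 12.5-fold from low levels. Of 6 tested Ms4a genes 3 rose (4 with the replicate block), with Ms4a4c at 3.90-fold and Ms4a4b at 1.51-fold. In the apolipoprotein L family 2 of 4 tested genes rose, Apol7e 1.96-fold and Apol10b 2.13-fold, the latter lost in 3 alternatives with adjusted p up to 0.0891.

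**Figure D3:**
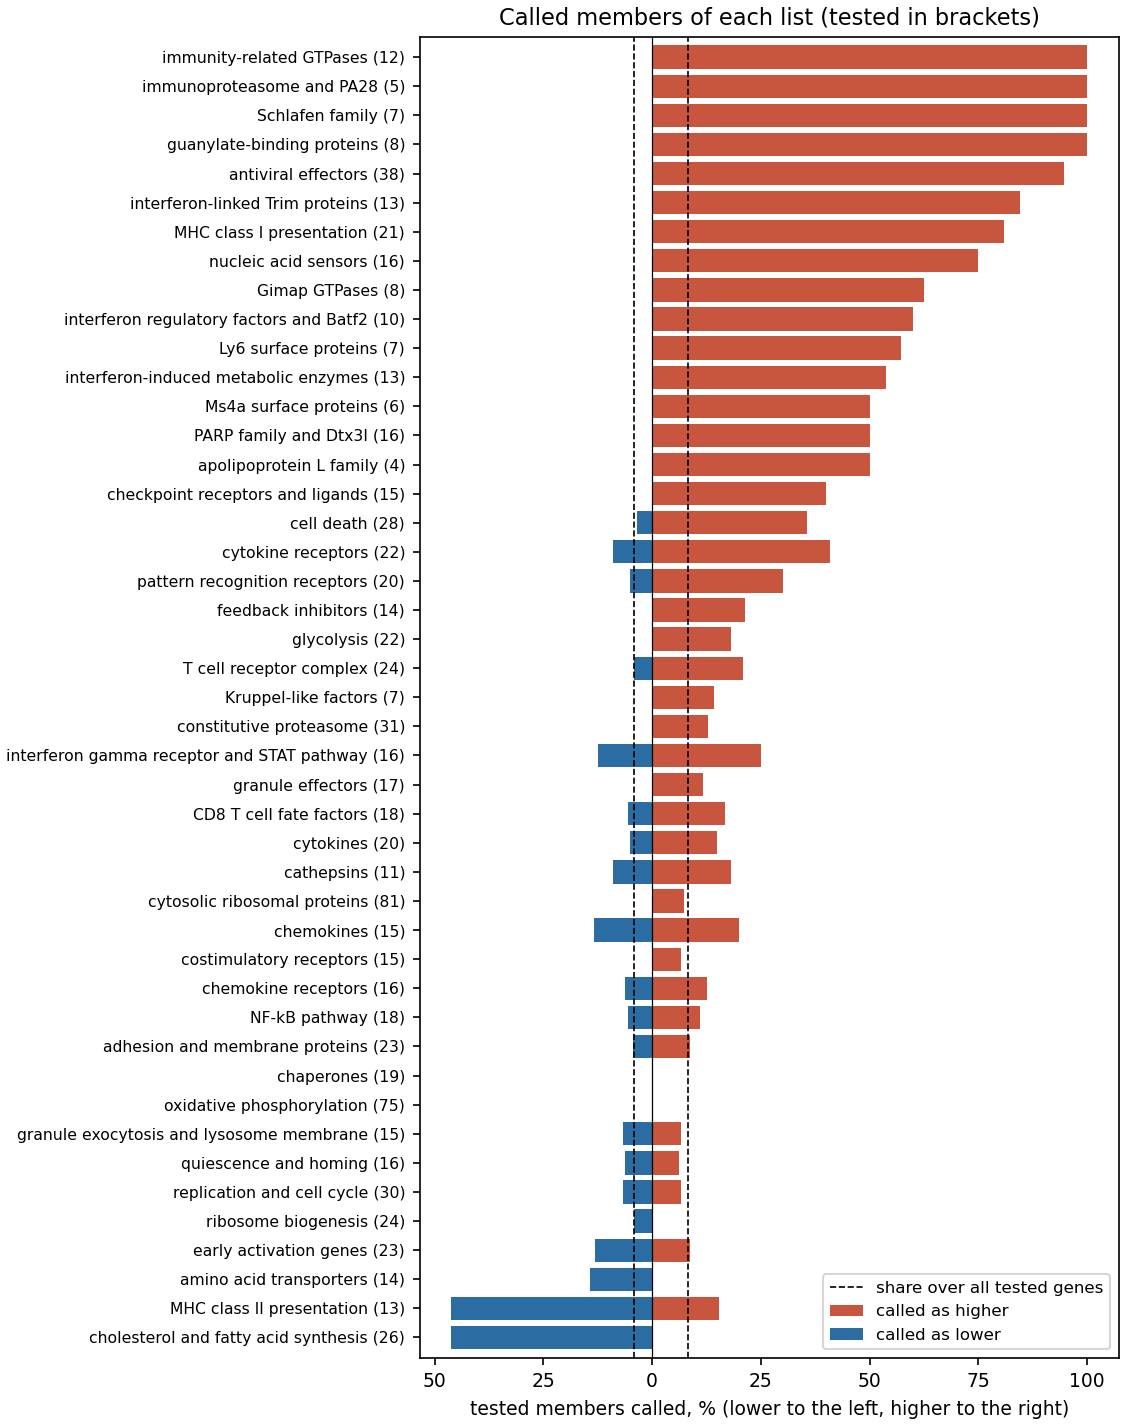
Share of tested members called higher or lower with IFNγ in each gene list, with the number of members beside it and dashed lines at the shares over all tested genes, 8.17% and 4.27%. Interferon effector lists stand at the higher end, and cholesterol and fatty acid synthesis and MHC class II at the lower end.

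The MHC class I pathway, by which cells show peptides of their own proteins to CD8 T cells, rose broadly but by smaller factors. Of 21 tested genes 17 rose and none fell (19 higher and 1 lower, Calr, with the replicate block), and the list sum went from 13086 to 21100 CPM, 1.61 times as high. B2m, the light chain shared by class I molecules, was at 2556, 3118 and 2918 CPM in Naïve and at 4361, 5235 and 5267 CPM in IFNγ (1.73-fold, adjusted p = 0.00593). H2-D1, a classical heavy chain, rose 1.53-fold from 2247 ± 44.1 to 3428 ± 150.4 CPM, and reads of H2 genes can be split between close relatives, with 73% of the words of H2-D1 unique. Larger rises were found in the non-classical genes H2-T24 (7.68-fold, from 19.3 ± 4.18 to 148 ± 41.6 CPM) and H2-T23 (3.34-fold). Nlrc5, the transactivator of class I genes, was at 81.5, 111 and 92.4 CPM without and at 225, 382 and 332 CPM with IFNγ, with no overlap (3.30-fold, adjusted p = 0.00388). With library size alone 16 of these genes were higher and 2 lower.

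Peptide supply moved with it. All 5 immunoproteasome and PA28 genes rose, by 2.34 times in sum. Psmb9, a catalytic subunit of the immunoproteasome, went from 55.8, 67.2 and 71.4 CPM to 192, 239 and 208 CPM (3.29-fold, adjusted p = 0.00151), and Psmb10 rose 2.52-fold. Psme1 and Psme2, the 2 chains of the PA28 cap, rose 2.23-fold and 2.27-fold. Of 31 tested subunits of the constitutive proteasome 4 rose in this fit (12.9%, against 8.17% of all tested genes) and none fell. The median log2 fold change was 0.06, and -0.08 with library size alone. Psma2, Psma3 and Psma5 differed by at most 1.51-fold, and their calls were lost in 3, 9 and 4 alternatives, with adjusted p up to 0.152. With the replicate block 10 of the 31 were higher, and at most 2 without any 1 of the Naïve libraries or without IFNγ replicate 2 or 3.

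Among secreted factors, the strongest rises were in the chemokines that bind CXCR3, the receptor of effector T cells. Cxcl9 (chr5:92321347-92328079, minus strand) was at 1.80, 4.07 and 3.57 CPM in Naïve and at 199.7, 307 and 301 CPM in IFNγ. The groups were separated by a factor far above their spread, 88.1-fold (log2 fold change 6.46 ± 0.92 SE, adjusted p = 0.00164). Cxcl10 rose 45.7-fold to 399 ± 78.5 CPM and Cxcl11 44.9-fold to 9.63 ± 3.47 CPM. In contrast, Ccl22 and Ccl17, ligands of CCR4 made by myeloid and B cells, were at 215 ± 81.3 and 4.48 ± 2.97 CPM in Naïve and at 79.4 ± 29.6 and 0.316 ± 0.401 CPM in IFNγ. Their calls as lower (adjusted p = 0.0209 and 0.0314) were lost in 5 and 6 alternatives, with adjusted p up to 0.125. Of 15 tested chemokines 3 were higher and 2 lower, and 5 and 4 with the replicate block. Of 16 tested chemokine receptors 2 were higher and 1 lower, and 4 and 4 with the block. Cx3cr1 had 9.03 ± 2.79 and 3.55 ± 1.39 CPM, and Ccr7 and Cxcr5, homing receptors of the spleen and lymph node, were 0.26 and 0.34 higher on the log2 scale. All 3 of these calls were lost in 3 to 8 alternatives, with adjusted p up to 0.223.

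Of 20 tested cytokines 3 rose and 1 was lower, and 5 and 1 with the replicate block. Il18bp, a secreted inhibitor of IL18, went from 1.90, 4.77 and 2.12 CPM to 22.3, 29.8 and 42.0 CPM (log2 fold change 3.46 ± 0.55 SE, adjusted p = 0.00281), Il27 rose 8.86-fold to 5.47 ± 1.26 CPM, and Tnf rose 2.47-fold from 16.1 ± 0.943 to 39.9 ± 4.07 CPM. Ifng itself was at 2.61 ± 0.972 and 3.66 ± 1.58 CPM (adjusted p = 0.879). Tgfb1 was 1.19-fold lower, a call lost in 6 alternatives. Among 22 tested cytokine receptors 9 rose and 2 were lower, and 10 and 4 with the block. Il12rb1 and Il12rb2, the chains of the IL12 receptor that drives IFNγ production, rose from 3.25 ± 0.543 to 21.9 ± 5.45 CPM (6.72-fold) and from 19.6 ± 5.59 to 125 ± 32.5 CPM (6.42-fold). Il15ra rose 4.90-fold from 8.39, 9.46 and 8.47 CPM to 34.4, 48.7 and 45.8 CPM, and Il2rg, the common γ chain, 1.55-fold from 473 ± 19.4 to 732 ± 61.4 CPM. The median of the receptor list was 0.11, and -0.03 with library size alone.

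Of 15 tested checkpoint receptors and ligands, 6 rose and none fell, while with the replicate block 6 were higher and 1, Vsir, lower. The count was 3 without Naïve replicate 1 or 3 or without IFNγ replicate 2 or 3, and 3 of the 6 lost their call in at least 6 alternatives. Cd274, which encodes the inhibitory ligand PD-L1 (chr19:29367455-29388095, plus strand), was at 91.7, 139.5 and 154 CPM in Naïve and at 551, 568 and 587 CPM in IFNγ. The treated libraries were tightly grouped above all untreated ones, a 4.43-fold rise (log2 fold change 2.15 ± 0.30 SE, adjusted p = 0.00145). Lgals9, a ligand of the receptor TIM3, rose 3.92-fold to 359 ± 131 CPM, and Ido1, an enzyme that degrades tryptophan, 6.26-fold from 1.40 ± 0.196 to 8.88 ± 3.24 CPM. Of 15 tested costimulatory receptors 1 was higher (6.67%, against 8.17% of all tested genes) and none lower. The higher gene was Tnfrsf14 (1.40-fold, lost in 3 alternatives), and with the replicate block 2 were higher and 2 lower. Of 23 tested adhesion and membrane proteins 2 rose (8.70%, against 8.17% of all tested genes) and 1 fell (4.35%, against 4.27%). With the replicate block 4 were higher and 3 lower, where 13.5% and 11.4% of all tested genes were. With library size alone 2 were higher and 6 lower. The genes that rose were Icam1, the ligand of the integrin LFA1 (1.94-fold, from 128 ± 14.7 to 248 ± 32.6 CPM), and Cd47, a signal against phagocytosis (2.13-fold, from 155 ± 9.87 to 329.8 ± 71.6 CPM). Cd48, a ligand of CD2 and CD244, was 1.21-fold lower (adjusted p = 0.0317, up to 0.119 over the alternatives).

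Genes of cell death were among those that moved, with 10 of 28 tested higher and 1 lower, and 12 and 3 with the replicate block. Mlkl, the executioner of necroptosis, was at 3.12, 3.60 and 3.99 CPM in Naïve and at 16.3, 40.8 and 44.7 CPM in IFNγ (9.49-fold, adjusted p = 0.00478). Daxx, a nuclear adaptor and histone chaperone, rose 5.17-fold from 109 ± 2.78 to 564 ± 200.1 CPM. Ripk3, the kinase that activates MLKL, was 1.21-fold lower (adjusted p = 0.0384), a call lost in 6 alternatives with adjusted p up to 0.131. The death ligand Tnfsf10 rose 4.87-fold from 12.1 ± 0.926 CPM to 33.2, 77.0 and 66.9 CPM.

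Enzymes known from the interferon response of macrophages rose too, 7 of 13 tested and none lower (8 and 1 with the replicate block). Wars, the tryptophan tRNA synthetase, went from 78.2, 99.9 and 95.9 CPM to 716, 624 and 599.7 CPM (7.08-fold, adjusted p = 0.000321). Upp1 and Nampt, of uridine and NAD metabolism, rose 9.33-fold and 4.11-fold. Nos2, the inducible nitric oxide synthase, was at 0 in the 3 Naïve libraries and reached 6.88, 13.4 and 10.3 CPM when IFNγ was given. Against a floor of 3 counts per library it was at least 54.5-fold higher (adjusted p = 0.00996). Among genes of no list, Clic5, a chloride intracellular channel protein, rose from 0.244, 0.860 and 0.545 CPM to 30.7, 59.9 and 57.3 CPM (94.3-fold, adjusted p = 0.000569). Serpina3f, a protease inhibitor, rose 38.5-fold to 262 ± 18.5 CPM, and Ubd, a ubiquitin-like protein, 19.7-fold to 6.51 ± 1.90 CPM.

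The medians of T cell identity genes lay near that of all tested genes. Of 24 tested genes of the T cell receptor complex and its signalling 5 rose and 1 fell, with a median log2 fold change of 0.02 (-0.12 with library size alone), and with the replicate block 7 were higher and 4 lower. The 5 that rose were 20.8% of the list, against 8.17% of all tested genes, the 1 that fell 4.17%, against 4.27%, and 3 rose without Naïve replicate 2 or IFNγ replicate 2. Ptprc, the phosphatase CD45, rose 1.36-fold from 1359 ± 47.1 to 1847 ± 79.9 CPM, and the ubiquitin ligase Cblb, a brake on T cell activation, 1.64-fold. Rasgrp1, an activator of RAS, was 1.62-fold lower (adjusted p = 0.0163, up to 0.0697 over the alternatives). Of 18 tested fate factors 3 were higher (16.7%) and 1 lower (5.56%), with a median of 0.04, and 5 and 2 with the block. The higher count was 1 without Naïve replicate 2 or 3 or without IFNγ replicate 2 or 3. Ikzf2, which encodes HELIOS, rose 1.76-fold from 23.5, 22.5 and 28.9 CPM to 35.9, 50.5 and 46.2 CPM. Eomes, at 78.2, 54.5 and 58.3 CPM without and 87.1, 146 and 142 CPM with IFNγ, lost its call in 5 alternatives with adjusted p up to 0.152, and Tcf7, the factor of naive and memory cells, had 935 ± 127 and 815 ± 112 CPM (adjusted p = 0.487, or 0.00947 with the replicate block).

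Of 23 tested early activation genes 2 were higher and 3 lower (8.17% and 4.27% of all tested genes were), and 3 and 5 with the replicate block, and 1 was lower without Naïve replicate 2 or 3 or without IFNγ replicate 2 or 3. Jun, a subunit of the factor AP1 (chr4:95049034-95052222, minus strand), was at 133, 115 and 127 CPM in Naïve and at 697, 529 and 568 CPM in IFNγ. The groups did not come near each other, and Jun rose 4.77-fold (adjusted p = 0.000843). Cd69, the activation marker that holds cells in lymphoid tissue, rose 2.64-fold from 140.1 ± 12.5 to 370.5 ± 42.0 CPM. Jund, another AP1 subunit, fell 1.41-fold, while Junb was at 438 ± 42.8 and 466 ± 35.5 CPM. Dusp1, a phosphatase of MAP kinases, and Egr2, a zinc finger factor, were 1.39-fold and 1.57-fold lower, and each call was lost in 6 alternatives, with adjusted p up to 0.125. Of 17 tested granule effectors 2 were higher (11.8%, against 8.17% of all tested genes), and 6 with the replicate block. The 2 called without the block were Tnfsf10 and Srgn, the core protein of granules (1.37-fold, lost in 5 alternatives). Of 18 tested NF-kB genes 2 were higher and 1 lower (11.1% and 5.56%, against 8.17% and 4.27% of all tested genes). With the block 5 were higher and 2 lower, and Nfkb1 was at 443 ± 2.46 and 459 ± 9.75 CPM. Of 20 tested sensors of microbial products 6 were higher and 1 lower (7 and 3 with the block, 3 and 0 without IFNγ replicate 2), among them Tlr9 at 2.74-fold (from 62.4 ± 1.57 to 171 ± 47.3 CPM) and Nod1 at 1.89-fold.

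Of the 145 genes that fell at least 2-fold 5 were in any of the lists, as were 872 of the 12122 tested genes. Ttc37, part of a complex that feeds RNA to the exosome (chr13:76098734-76190316, plus strand), was at 10.7, 20.1 and 11.4 CPM in Naïve and at 0 in all treated libraries. That put it at least 52.7-fold lower against the floor of 3 counts per library (adjusted p = 0.000549). Sipa1l2 was at least 30.0-fold lower by the same floor, with 11.4, 4.22 and 8.41 CPM in Naïve, but lost its call in 6 of 15 alternatives, with adjusted p up to 0.0870. Several others are known from myeloid cells and were lowest among Naïve libraries in replicate 1. F13a1, a clotting factor subunit of macrophages, was at 6.09, 23.5 and 19.2 CPM in Naïve and at 0.648, 0.885 and 1.46 CPM in IFNγ, a 16.3-fold fall (adjusted p = 0.001). Mmp8, a collagenase, fell 7.78-fold from 13.7, 34.8 and 36.5 CPM to 3.48, 3.89 and 3.51 CPM. Fabp4, a fatty acid carrier counted here among stromal and endothelial markers, fell 19.0-fold to 0.417 ± 0.190 CPM. Of the 7 tested genes of that list it was the 1 called. The list sum ranged from 382 to 854 CPM in Naïve and from 414 to 537 CPM in IFNγ. Cxcl3, Tfec, Clec4a3 and Fam20c were 16.1-fold, 6.75-fold, 6.06-fold and 5.83-fold lower, but each lost its call in 6 or 7 alternatives, with adjusted p up to 0.256. Of 17 tested marker genes of monocytes and macrophages, 3 fell and none rose, with a median log2 fold change of -0.02, and the list sum ranged from 637 to 1156 CPM in Naïve and from 496 to 927 CPM in IFNγ. Hmox1 and Spic were among those that fell, and the call of Spic was lost in 4 alternatives. With the replicate block 6 of the 17 were lower and 4 higher, C1qb, C1qc, Axl and Fcgr1. In bulk RNA, fewer cells of a type and less RNA per cell cannot be told apart.

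By loss in CPM, the leading genes were abundant ones, several of them known from B cells. Fcer2a, the low-affinity IgE receptor CD23 of B cells (chr8:3681737-3694175, minus strand), was at 451, 428 and 379.7 CPM in Naïve and at 119, 84.6 and 80.5 CPM in IFNγ. No library crossed between the groups, and Fcer2a fell 4.42-fold (log2 fold change -2.15 ± 0.39 SE, adjusted p = 0.00607). Il4i1, an amino acid oxidase induced by IL4 (chr7:44816387-44840809, plus strand), fell 4.08-fold from 458, 632 and 658 CPM to 109.9, 148 and 169.8 CPM (log2 fold change -2.03 ± 0.19 SE, adjusted p = 0.000321). Pou2af1, a coactivator of B cells, fell 1.72-fold from 558 ± 44.2 to 325 ± 33.6 CPM, and Hvcn1, a proton channel, had 429 ± 29.4 and 207 ± 5.23 CPM, a call lost in 4 alternatives with adjusted p up to 0.0658. Tmem123, Syngr2 and Cltc, of cell membranes and vesicle traffic, fell 1.73-fold, 1.73-fold and 1.47-fold, Tmem123 from 1193, 1622 and 1577 CPM to 716, 914 and 907 CPM.

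MHC class II genes, which present peptides to CD4 T cells and are expressed by B cells and other presenting cells, fell more often than they rose. Of 13 tested members 6 fell and 2 rose, or 8 and 2 with the replicate block, and the list sum went from 9772 ± 508 to 7636 ± 191 CPM. H2-Aa, the α chain of the class II molecule (chr17:34282744-34287823, minus strand), was at 1714, 1939.7 and 1685 CPM in Naïve and at 1243, 1394 and 1237 CPM in IFNγ (1.38-fold lower, adjusted p = 0.00686). H2-Ab1 fell 1.38-fold, H2-DMb1 1.56-fold, H2-DMb2 1.52-fold and Cd74, the invariant chain, 1.23-fold. Rfx5, a factor that binds class II promoters, rose 1.38-fold, H2-Oa was 1.28-fold higher, and Ciita, the class II transactivator, which is named outside the rule for named genes, had 167 ± 7.03 and 131 ± 6.93 CPM (adjusted p = 0.0783, or 0.0079 with the replicate block). The calls of H2-Eb1 (1.64-fold lower) and H2-Oa were lost in 5 and 4 alternatives, with adjusted p up to 0.119.

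The sum of B cell markers was also lower with IFNγ, although most of these markers did not pass the test. The sum over 12 B cell markers ranged from 3563 to 3871 CPM in Naïve and from 2897 to 3048 CPM in IFNγ without overlap, and 3 of them fell and none rose, with Vpreb3 (a call lost in 3 alternatives) and Fcer2a among them. Without Fcer2a the sum was 3314 ± 130.1 CPM in Naïve and 2899 ± 72.3 CPM in IFNγ. With the replicate block 4 were lower and 1 higher, Fcrla. Cd79a and Ms4a1, 2 other defining markers, had 903 ± 67.7 and 502 ± 87.9 CPM in Naïve and 862 ± 72.2 and 531 ± 94.0 CPM in IFNγ, and neither passed the test. The part of B cells in the lower class II, Fcer2a and Pou2af1 levels was not tested. The CD8 T cell list, which also holds genes of all T cells such as Cd3e, had sums that overlapped, at 1154 to 1250 and 1143 to 1203 CPM. Of its 7 tested genes 0 were called by edgeR, 1 had an unadjusted p under 0.05, 1 was lower by DESeq2 and 0 by limma-voom. With the replicate block 2 of these were lower, Cd5 and Thy1. The sums of 5 CD4 T cell markers overlapped as well, at 133 to 150 CPM in Naïve and 122 to 142 CPM in IFNγ. Sums of NK cell markers were 89.0 to 106 CPM in Naïve and 116 to 184 CPM in IFNγ, where Eomes, also a factor of CD8 T cells, was the gene called. Without Eomes the other 6 summed to 33.1 ± 15.5 and 33.3 ± 7.30 CPM. Sums of dendritic cell markers overlapped at 91.3 to 152 and 117 to 261 CPM, where Itgax and Flt3 fell and Bst2, also on the antiviral list, rose. Without Bst2 the sum was 101 ± 24.8 CPM in Naïve and 62.8 ± 13.3 CPM in IFNγ. Erythroid sums ranged from 336 to 1868 and from 570.0 to 4115 CPM, lowest in replicate 1 of each group, and 0 of 6 genes were called by edgeR, 0 at an unadjusted p under 0.05 and 0 by DESeq2 or limma-voom, but 5 were higher with the replicate block. Their part, and that of NK and dendritic cells, in other changes was not tested.

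**Figure D4:**
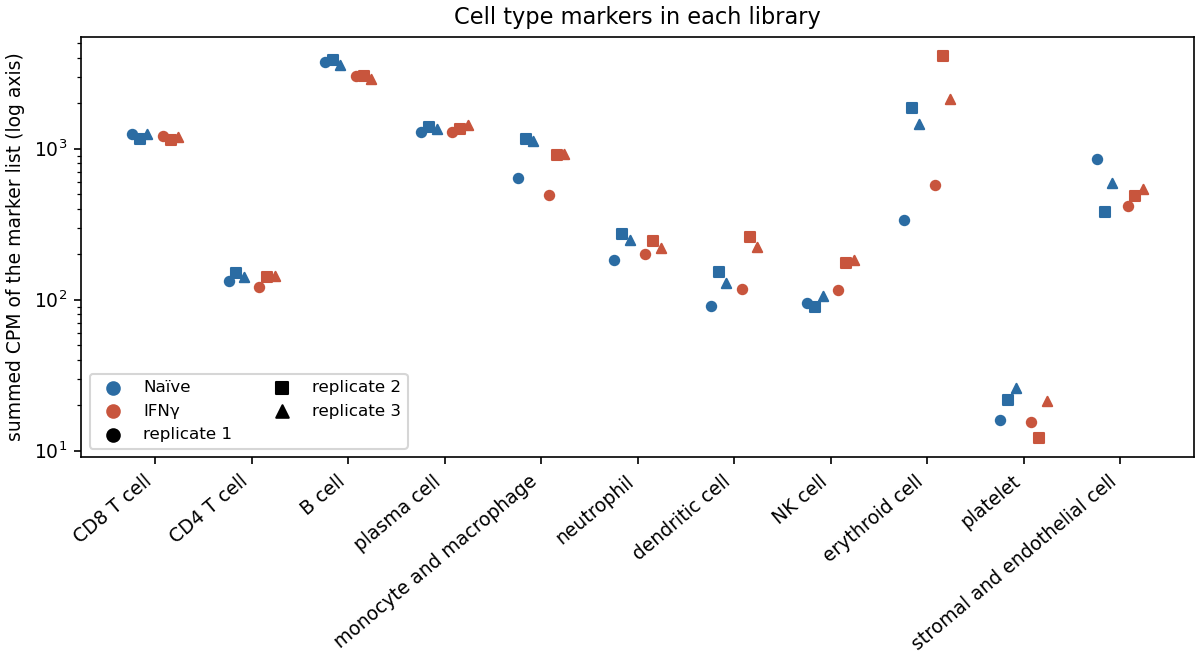
Summed CPM (log axis) of the marker genes of each cell type in the 3 Naïve and 3 IFNγ libraries, with a symbol for each replicate number. B cell sums are lower in every IFNγ library, CD8 T cell sums overlap, and erythroid sums are lowest in replicate 1 of both groups.

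Of 26 tested genes of cholesterol and fatty acid synthesis 12 were called lower (46.2%, against 4.27% of all tested genes) and none higher. All 26 tested members had a negative log2 fold change, from -0.78 to -0.12, and the IFNγ libraries of 21 lay below all Naïve ones, as they did for 15.4% of all tested genes. The median was -0.38, against -0.02 over all tested genes, and the list sum went from 2883 ± 169 to 2226 ± 66.7 CPM. Scd1, the desaturase that makes oleate (chr19:44394455-44407879, minus strand), was at 384, 423 and 368 CPM in Naïve and at 217, 271 and 248 CPM in IFNγ, below in every library (1.60-fold lower, adjusted p = 0.00458). Lss, which closes the sterol ring, was at 61.0, 64.4 and 59.7 CPM without and 40.2, 34.9 and 32.5 CPM with IFNγ, and lost its call in 2 alternatives with adjusted p up to 0.0570. Scd2 was 1.60-fold lower, a call lost in 4 alternatives, and Srebf2, the transcription factor of the pathway, had 429 ± 18.9 and 369.8 ± 14.9 CPM (adjusted p = 0.145, or 0.0165 with the replicate block). The count of lower genes changed when 1 library was left out. It was 3 and 4 without Naïve replicates 2 and 3, and 5 and 2 without IFNγ replicates 2 and 3. Over all tested genes, the fits without these libraries called 216, 217, 215 and 268 lower, against 518. The median of the list stayed between -0.46 and -0.34 in the fits that left out a Naïve or IFNγ library or replicate 1 of every group. With the replicate block 21 genes were lower, and with library size alone 23, with a median of -0.52.

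**Figure D5:**
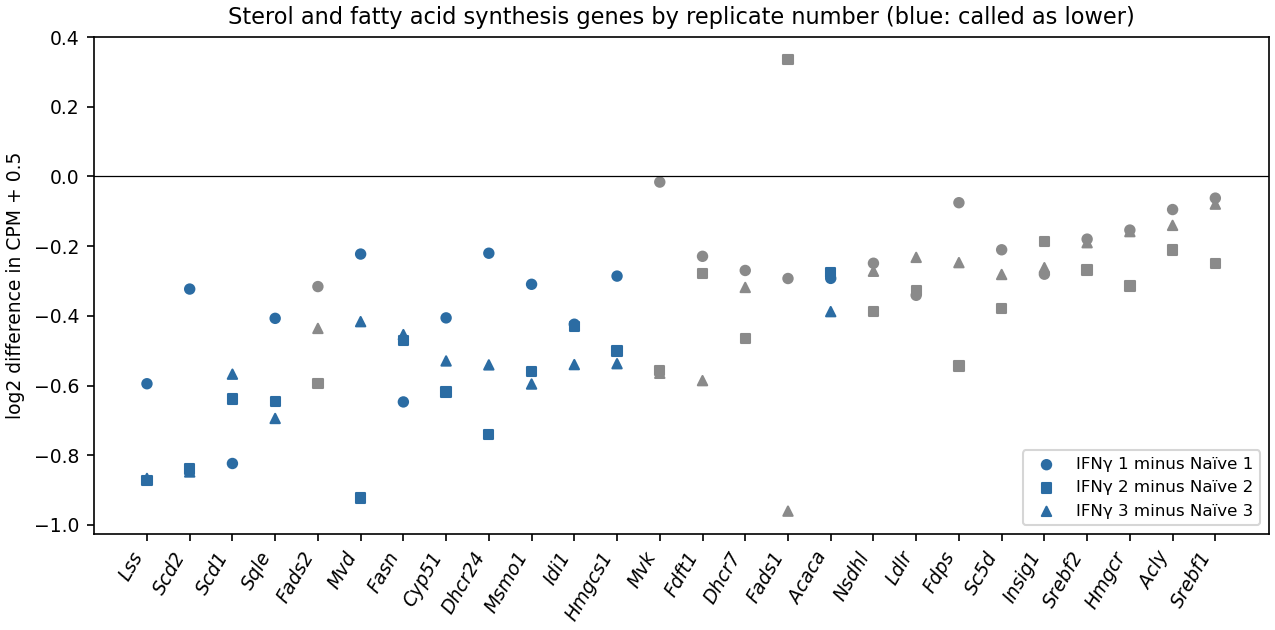
Log2 difference of IFNγ minus Naïve (CPM + 0.5) for each gene of cholesterol and fatty acid synthesis in each of the 3 pairs of equal replicate number, with called genes in blue. Except for the Fads1 value of replicate 2, each point lies below 0.

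To ask which of these genes also differed between IFNγ and the other treatments, IFNγ libraries were also set directly against αCD3 and LPS. Between IFNγ and αCD3 4514 genes (37.2%) were called, and between IFNγ and LPS 4895 (40.4%). These contrasts share the IFNγ libraries with the comparison above. Gbp2 was at 598 ± 218 CPM with αCD3 and 1545 ± 746 CPM with LPS, and IFNγ exceeded αCD3 by 2.77 ± 0.38 SE and LPS by 1.40 ± 0.36 SE on the log2 scale (adjusted p = 0.00029 and 0.011). Cxcl9 was at 26.0 ± 21.6 and 14.8 ± 12.8 CPM, below IFNγ by both contrasts (adjusted p = 0.00507 and 0.00188). Clic5 had 4.90 ± 3.67 CPM with αCD3 and 0.593 ± 0.454 CPM with LPS, and IFNγ was higher than both (adjusted p = 0.00118 and 8.64e-05).

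For other members the difference from LPS did not pass the test. Irf1 was at 444 ± 104 CPM with αCD3 and 808 ± 364 CPM with LPS, and IFNγ was higher than αCD3 (log2 difference 1.41 ± 0.31 SE, adjusted p = 0.00534), whereas the difference from LPS was 0.54 ± 0.31 SE (adjusted p = 0.188). Cd274 was at 478 ± 165 CPM with LPS (difference 0.25 ± 0.28 SE, adjusted p = 0.508), and Jun at 495 ± 199 CPM (difference 0.27 ± 0.26 SE, adjusted p = 0.436). Mx1 had 183 ± 142 CPM with αCD3 and 279 ± 43.9 CPM with LPS, and neither contrast passed the test (adjusted p = 0.434 and 0.897). Ttc37 was at 22.9 ± 7.81 CPM with αCD3 and 18.1 ± 6.67 CPM with LPS, while all IFNγ libraries were at 0 (adjusted p = 4.5e-05 and 4.21e-05). Fcer2a and Il4i1 were lower with IFNγ than with LPS by 2.13 ± 0.39 SE and 2.94 ± 0.20 SE on the log2 scale (adjusted p = 0.00161 and 2.3e-06). H2-Aa, by contrast, was at 1149.8 ± 136 CPM with αCD3 and 1038 ± 29.5 CPM with LPS, and IFNγ lay above LPS by 0.32 ± 0.09 SE (adjusted p = 0.0155).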

How the data were processed

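RNA was sequenced from CD8 T cells of 4 groups with 3 libraries each. The authors estimated transcript abundance with Kallisto (version not given in the sources used here) against the mouse build mm10 and deposited estimated counts per gene; their processing notes also name DESeq2 1.24.0. The estimated counts were rounded, filtered with filterByExpr and scaled by TMM, and all 12 libraries were fitted by group in edgeR 4.0.16 (R 4.3.3), with the robust quasi-likelihood test and Benjamini-Hochberg adjustment. Alternatives of scaling and filtering, DESeq2 1.42.0, limma 3.58.1 (voom), a replicate block, fits of only the 2 groups, and fits without single libraries or without replicate 1 of every group (chosen after seeing the data) were also run. The labels do not say what a replicate number shares. Deviations from the group means correlated at 0.1175 to 0.4006 in every pair of the same number, and at -0.3542 to 0.1016 between different numbers. The numbers were therefore treated as possible pairs, and the block was fitted as an alternative. The values given are from the fit without the block, with block values beside some of them.

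Genes were named by 4 rules: the 15 largest rises and 10 largest falls among called genes whose libraries do not overlap and whose higher group has at least 5 CPM; the 10 largest gains and 10 largest losses in CPM; for each of 45 lists, up to 3 risers, 3 fallers and the most abundant member; and the core genes of the pathway. Of the list genes, 872 of 907 were tested. Marker genes of cell types, neighbours within runs, list members whose calls depended on the fit, Stat3, Tgtp1, Tgtp2 and Ciita were named in addition, after their values were seen. The members and lists were chosen with earlier results of these data known. Positions came from GENCODE M21 (GRCm38), which matched 20612 of 20778 symbols, and promoters from RefSeq. Mouse age and some doses differ between the labels and the study's methods, and the labels' values are given. Some genes that the rules name are not reported here.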

Additional observations from a re-analysis of the deposited data

How the results depend on the processing

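The count of 1508 called genes was 2279 with library size alone (1564 lower), 3020 with the replicate block (1642 higher, 1378 lower), 2918 with the block and only the 2 groups (1600 higher, 1318 lower) and 2837 without replicate 1 of every group (1401 lower). Leaving out single libraries gave 787 to 1651 called genes, 572 to 1068 higher and 215 to 583 lower. Naïve replicates 2 and 3 (850 and 835 without them) and IFNγ replicates 2 and 3 (787 and 918) each moved it by over 1.5 times. The cause was not tested. Other fits stayed within 1.5 times, as did the counts against αCD3 and LPS in every fit run. Of 174 called genes named by the rule, 116 kept their call in all 15 alternatives and 58 lost it in at least 1, most often without IFNγ replicate 2 (50 genes), and 0 changed sign. With the replicate block 1 was lost, Lyst. Leaving out 1 Naïve or IFNγ library moved 11 of 30 list counts of at least 3 genes, and 24 of 30 list counts of 1 or 2 genes, by over 1.5 times.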

Other observations

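Of 81 tested cytosolic ribosomal proteins, 76 had a positive log2 fold change with a median of 0.11. With the replicate block 25 were called higher, where 13.5% of all tested genes were. Without the block 6 were called higher (7.41%, against 8.17% of all tested genes). That count ranged from 0 to 7 when 1 library was left out, and was lowest without any 1 of the Naïve libraries or without IFNγ replicate 2 or 3. The median was -0.03 with library size alone, where none was higher and 1 was lower. Rps20 and Rpl34, of the small and large subunit, were 1.22-fold and 1.19-fold higher, and each call was lost in 8 alternatives, with adjusted p up to 0.163. Rplp0, the most abundant, was at 3438 ± 59.7 and 3633 ± 37.9 CPM (adjusted p = 0.247). Of 75 tested genes of oxidative phosphorylation, edgeR called 0, with 2 at an unadjusted p under 0.05, DESeq2 and limma-voom called 0, and the block called 7 higher. Atp5b, a subunit of ATP synthase, was at 710.4 ± 38.1 and 747 ± 32.4 CPM. Of 24 genes of ribosome biogenesis 1 was lower (4.17%, against 4.27% of all tested genes). This was Rrp12, a call lost in 5 alternatives with adjusted p up to 0.0693, and with the block 3 were higher and 3 lower. Of 19 chaperones edgeR called 0, with 5 at an unadjusted p under 0.05, limma-voom called 0, DESeq2 called 1 higher and 1 lower, and the block called 7 higher and 2 lower. Of 22 tested genes of glycolysis 4 were higher (18.2%, against 8.17% of all tested genes) and none lower, and 4 and 4 with the block. The median was -0.09. With library size alone 3 were higher and 7 lower, with a median of -0.23. Hk3, a hexokinase of myeloid cells, rose 4.12-fold from 22.5 ± 6.57 CPM to 66.2, 97.7 and 113 CPM, Pfkp, a phosphofructokinase, 1.99-fold and Hk1 1.78-fold, while Gapdh was at 752 ± 76.7 and 699 ± 96.4 CPM.

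Lymphocyte GTPases of the Gimap family, which support T cell survival, were higher in 5 of 8 tested members, and in 6 with the replicate block. The count was 3 without any 1 of the Naïve libraries or without IFNγ replicate 1. Gimap1 and Gimap3 lost their calls in 6 and 9 alternatives. Gimap4 rose 1.57-fold from 552, 600.0 and 624 CPM to 1035, 853 and 897 CPM, and Gimap8 1.43-fold. Of 30 tested genes of replication and the cell cycle 2 were higher and 2 lower (6.67% each, against 8.17% and 4.27% of all tested genes). With the replicate block 5 were higher and 5 lower, where 13.5% and 11.4% of all tested genes were. Mcm6, part of the replicative helicase, rose 1.40-fold, while Tk1 and Cdk2, of nucleotide salvage and S phase, fell 1.77-fold and 1.71-fold. Klf6, a zinc finger factor, rose 1.58-fold from 288, 249 and 258 CPM to 449, 387 and 419 CPM, the only one of 7 tested Kruppel-like factors called in this fit, against 3 with the block. Ctsc, the cathepsin that activates granzymes, rose 2.39-fold from 187 ± 14.3 to 445 ± 69.7 CPM, and Stx11, needed for granule release, 1.89-fold. Ddit4, an inhibitor of mTOR, fell by 0.58 on the log2 scale.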
